A study of Drosophila melanogaster with 4 samples.

Results

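Sex in the Drosophila embryo is set by the dose of X-linked genes, and 10 genes of this decision were examined for HDAC3 occupancy. They were chosen by name for their roles: Sxl, the switch gene; sc, sisA and upd1, which signal the dose of the X; dpn, the autosomal repressor; da, emc and her, which the mother supplies to the egg; and tra and msl-2, which Sxl controls. Every peak that overlapped a gene body or lay within 2000 bp of it was assigned to that gene, so the 10 genes stand among 17683 annotated genes on the chromosome arms, of which 13945 code for protein. Sxl, sc, sisA and upd1 lie on the X and the other 6 genes on autosomes. Earlier results of these data were known when the genes were chosen.

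HDAC3 was mapped by CUT&Tag, in which an antibody brings protein A fused to the transposase Tn5 to nuclei so that DNA near the bound protein is cut and tagged. All embryos were whole, of unrecorded sex, pooled, kept at 25°C and 2 to 4 h old. HDAC3 shRNA embryos (tub-GAL4/shRNA HDAC3) were profiled with the rat anti-HDAC3 antibody in the second round, beside w1118 embryos with the same antibody in that round. In the first round w1118 embryos, the wild type of the study, were profiled with the rat antibody and with a rabbit anti-HDAC3 antibody. The driver called tub-Gal4 is a maternal GAL4-VP16 line, so the shRNA acts on what the mother supplies, and the w1118 embryos carried neither driver nor shRNA. The shRNA stock is listed with an sc mutation on its X chromosome, and whether the profiled embryos carried it is not given in the sources used here. The rat antibody in w1118 embryos has a library in each round, the later one labelled a second replicate, and these were compared by the overlap of their peaks. HDAC3 shRNA embryos and the rabbit antibody have 1 library each, and no test was made. A w1118 library without the driver was the only control, and genotype, driver and library cannot be told apart.

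The HDAC3 shRNA list held 102 peaks, 18 of them on the chromosome arms, against 1142 peaks in the second-round w1118 list, 6258 in the first-round rat list and 3645 in the rabbit list. Median fold enrichment, the ratio of signal in a peak to its local background given by MACS2, was 4.65 in the HDAC3 shRNA list, 3.73 in the second-round w1118 list, 3.72 in the first-round rat list and 3.86 in the rabbit list. The lowest −log10 q (q is the adjusted p-value of a peak) was 1.61 in the HDAC3 shRNA list and 1.60 in the other 3. The lists hold no read numbers, so depth is unknown and fold was ranked within a list only. They hold no measure of HDAC3 protein or of cell type markers, so neither the knockdown nor the tissue could be checked.

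In the blastoderm, X-linked activators such as Scute and SisA, working with maternal Daughterless, switch on the early promoter of Sxl in embryos with a double dose of the X. Deadpan, Extramacrochaetae and the corepressor Groucho oppose them. The early Sxl protein then directs splicing of transcripts from the late Sxl promoter, and the loop keeps itself going in females, where Sxl also leads tra to its active form and blocks translation of msl-2. Zelda, the pioneer factor of the early embryo, binds short TAGteam sequences in front of many of the first genes to be transcribed. HDAC3 is the catalytic histone deacetylase of the SMRTER corepressor complex.

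The sequences below, taken from the RefSeq copy of assembly release 6 (the dm6 coordinates), are the 250 bp upstream of 5 transcription start sites (TSSs) of the X-linked genes. They are shown because 4 of them are entered by an HDAC3 peak in w1118 embryos and 1, the early promoter of Sxl, is not. Each runs 5′ to 3′ in the direction of transcription, ends 1 bp before the TSS and holds no annotated exon. Capitals mark matches, on either strand, to the 10 motifs searched: the TAGteam forms CAGGTAG with its variant TAGGTAG and its variant CAGGCAG, the sequences CAGCTG and then CACCTG (E boxes of the kind bound by Scute with Daughterless), CACGCG (of the kind bound by Deadpan), TTCNNNGAA (Stat92E), GAGAG (GAGA factor), TATCGATA (DREF) and GGTCACACT (M1BP). Neighbouring matches run together, and GAGAG matches overlap in repeats.

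Sxl early, chrX:7092884-7093133, minus strand: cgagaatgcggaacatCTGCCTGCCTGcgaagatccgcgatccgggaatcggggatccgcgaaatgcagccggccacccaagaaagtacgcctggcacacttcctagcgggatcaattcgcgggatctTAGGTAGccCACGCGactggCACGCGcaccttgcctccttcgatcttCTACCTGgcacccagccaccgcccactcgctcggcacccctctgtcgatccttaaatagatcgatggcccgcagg
Sxl late side, chrX:7097067-7097316, minus strand: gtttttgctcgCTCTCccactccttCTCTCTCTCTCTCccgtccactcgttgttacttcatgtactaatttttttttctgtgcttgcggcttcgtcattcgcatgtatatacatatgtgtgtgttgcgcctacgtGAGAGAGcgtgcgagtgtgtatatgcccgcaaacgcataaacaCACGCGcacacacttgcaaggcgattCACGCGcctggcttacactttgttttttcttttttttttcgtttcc
sc, chrX:395810-396059, plus strand: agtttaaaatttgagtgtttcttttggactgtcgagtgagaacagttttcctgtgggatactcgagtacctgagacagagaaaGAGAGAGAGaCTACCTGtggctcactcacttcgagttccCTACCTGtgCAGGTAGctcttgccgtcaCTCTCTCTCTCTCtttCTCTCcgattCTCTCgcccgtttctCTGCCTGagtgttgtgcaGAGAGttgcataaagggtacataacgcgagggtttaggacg
sisA, chrX:11322358-11322607, minus strand: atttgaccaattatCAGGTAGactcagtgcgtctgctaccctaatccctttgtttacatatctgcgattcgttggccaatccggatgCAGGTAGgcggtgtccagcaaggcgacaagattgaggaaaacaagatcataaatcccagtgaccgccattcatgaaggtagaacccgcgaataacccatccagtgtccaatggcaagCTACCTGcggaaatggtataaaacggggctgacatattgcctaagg
upd1, chrX:18309292-18309541, minus strand: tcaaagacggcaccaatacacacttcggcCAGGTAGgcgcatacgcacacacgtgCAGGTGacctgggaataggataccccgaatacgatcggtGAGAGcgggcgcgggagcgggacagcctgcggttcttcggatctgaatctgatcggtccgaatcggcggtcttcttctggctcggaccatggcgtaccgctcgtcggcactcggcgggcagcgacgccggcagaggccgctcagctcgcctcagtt

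Across the 10 genes, HDAC3 peaks were found at 0 genes in the HDAC3 shRNA list, 3 in the second-round w1118 list, 9 in the first-round rat list and 6 in the rabbit list. The 3 genes of the second-round w1118 list were Sxl, dpn and emc, da was the gene without a peak in the first-round rat list, and the rabbit list held peaks at Sxl, upd1, da, emc, her and tra. Over all annotated genes the same rule found a peak at 0.153% of genes in the HDAC3 shRNA list, 9.74% in the second-round w1118 list, 42.3% in the first-round rat list and 34.6% in the rabbit list. With so short an HDAC3 shRNA list, 0 of 10 cannot be set apart from the background. In the 3 w1118 lists the members' counts were above the background, which is given as a description for 10 genes chosen with earlier results known. For the rabbit list this ended with a stricter list, where peaks with a −log10 q of at least 3 were left at 1 member, against 14.5% of all genes, and those with at least 5 at 0, against 5.20%. The 1142 strongest rabbit peaks also left 0 members, against 11.6%. In the second-round w1118 list a −log10 q of at least 5 left 0, against 1.14%. In the first-round rat list 7 members were left with at least 3 and 6 with at least 5, against 23.6% and 12.6%. Among protein-coding genes alone the background was 9.95% in the second-round w1118 list, 44.0% in the first-round rat list and 37.2% in the rabbit list. The counts include peaks at neighbouring genes. Where the nearest TSS had to be the member's own, 2, 7 and 4 members were left in the same order of lists. The shares of all genes were then 5.11%, 24.4% and 18.8%.

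At start sites the counts were again above the background, as a description of few genes. In the second-round w1118 list a peak covered a TSS of Sxl alone, against 2.63% of protein-coding genes. In the first-round rat list a TSS was covered at Sxl, sc, sisA, upd1, dpn, emc and msl-2, 7 of 10, against 16.3%. In the rabbit list it was covered at Sxl, upd1 and emc, 3 of 10, against 15.2%. The rabbit peaks at upd1 and emc had a −log10 q below 3, at 2.85 and 2.26. Sxl has 4 annotated TSSs and upd1 has 3, which gives each more sites that a peak can cover. All 4 X-linked members had a TSS covered in the first-round rat list and 2 of 4 in the rabbit list, where the backgrounds over 2196 protein-coding X genes were 15.8% and 17.9%.

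**Figure D1:**
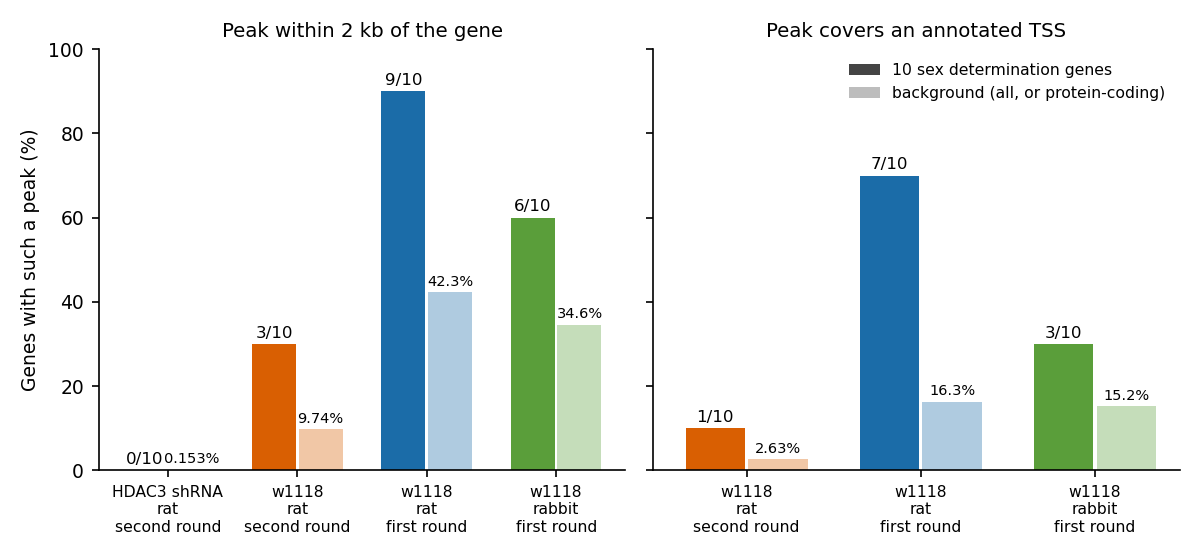
Share of genes with an HDAC3 peak, in percent, for the 10 sex determination genes (dark bars, with the count) and for the background (pale bars: all 17683 genes on the left, 13945 protein-coding genes on the right). The widest gap on the right is in the first-round rat list, at 7 of 10 members and 16.3% of genes.

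The 10 genes took 25 peaks in all, 4 in the second-round w1118 list, 14 in the first-round rat list and 7 in the rabbit list. In 14 of the 25 the nearest TSS of any gene was a member's own, 11 covered an own TSS and 11 lay outside the gene. Peaks covered a start site at Sxl, sc, sisA, upd1, dpn, emc and msl-2, da had one within the gene that covered no TSS, and her and tra had peaks at a neighbour alone.

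**Figure D2:**
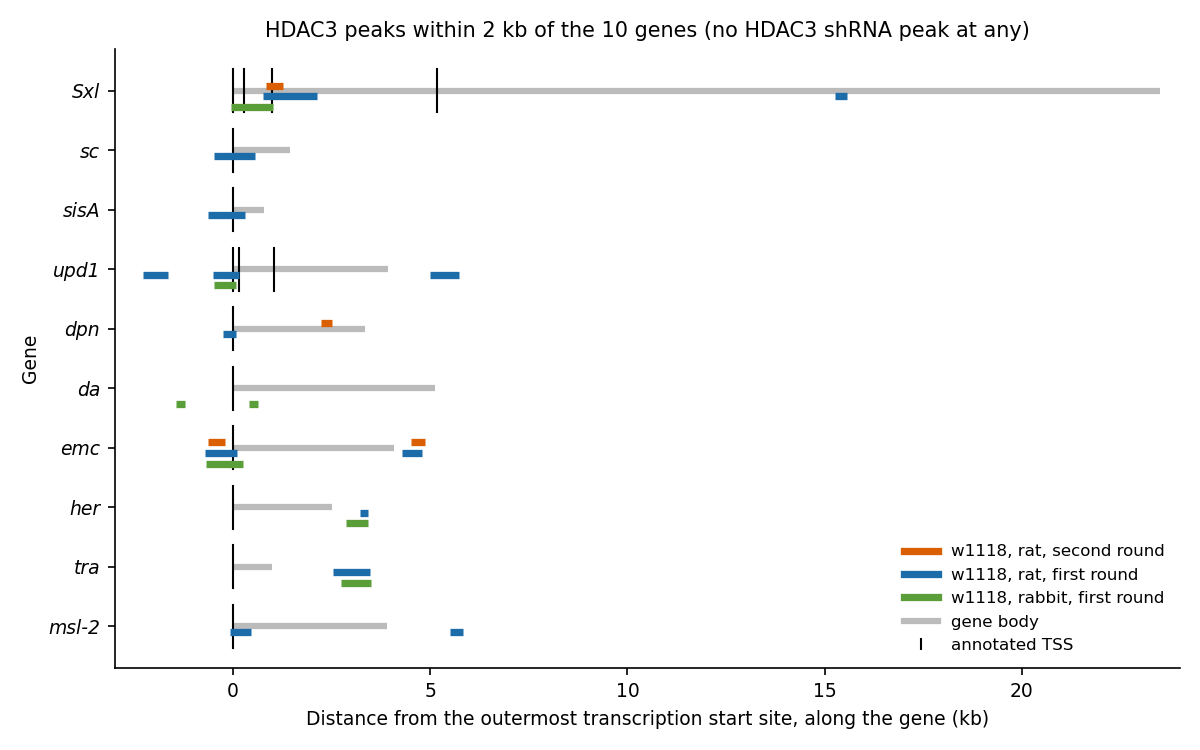
HDAC3 peaks (coloured bars, by list) within 2000 bp of each of the 10 genes, by distance in kb from the outermost annotated TSS along the gene; grey bars are gene bodies and black ticks annotated TSSs. Peaks sit at a start site of Sxl, sc, sisA, upd1, dpn, emc and msl-2, and beyond the 3′ end of her and tra.

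Sxl (FBgn0264270, chrX:7074550-7098053, minus strand), the RNA-binding protein at the head of the female pathway, had peaks in all 3 w1118 lists. Its 25 annotated transcripts start at 4 sites. The early TSS was taken by position as the most downstream of these, at chrX:7092883 (4 transcripts). The other sites lie upstream of it: 7097066 (2 transcripts), 7097768 (1 transcript) and 7098053, the outermost (18 transcripts), 5170 bp upstream of the early TSS.

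The second-round w1118 peak (chrX:7096779-7097211) had a fold of 3.91 (−log10 q 3.05) and ranked 439 of 1142. A first-round rat peak (chrX:7095917-7097303) had a fold of 3.22 (−log10 q 3.60) and ranked 5174 of 6258. The rabbit peak (chrX:7097044-7098103) had a fold of 4.01 (−log10 q 3.22) and ranked 1566 of 3645. All 3 peaks covered the late-side TSS at 7097066, and the rabbit peak covered the 2 further upstream as well. The overlap was partial: the rat and the rabbit peak shared 260 bp, 18.7% of the rat peak and 24.5% of the rabbit peak, whereas the second-round peak lay wholly inside the first-round rat peak.

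No peak of any list covered the early TSS of Sxl. The nearest peak edge lay upstream, at 3896 bp in the second-round w1118 list, 3034 bp in the first-round rat list and 4161 bp in the rabbit list. In the HDAC3 shRNA list the nearest peak on the X was 15927965 bp away. The strongest Sxl peak of the first-round rat list was elsewhere, in an intron 10093 bp downstream of the early TSS (chrX:7082495-7082790). It had a fold of 5.09 (−log10 q 5.30) and rank 887, and no other list held it. Its nearest TSS of any gene was that of mir-4956, 3063 bp away.

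**Figure D3:**
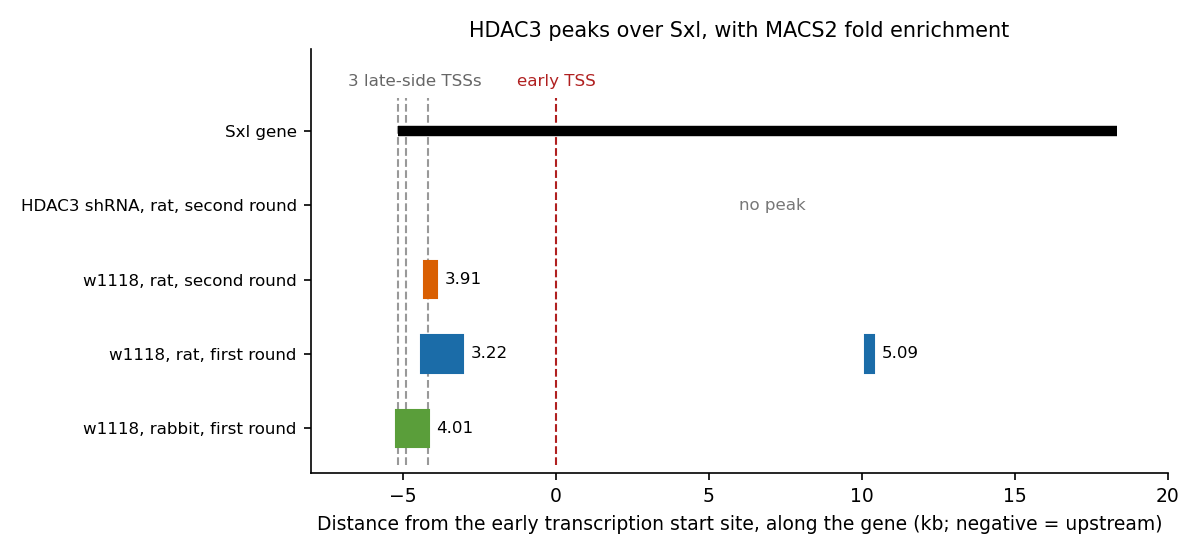
HDAC3 peaks over Sxl in the 4 lists, by distance in kb from the early TSS along the gene, with the fold of each peak; dashed lines are annotated TSSs. Apart from the intronic rat peak with a fold of 5.09, the peaks of the 3 w1118 lists cover the late-side TSS at 7097066. The rabbit peak alone covers the outermost TSS, and no peak lies at the early one.

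The X signal genes each had a first-round rat peak over the start of the gene. Scute (sc, FBgn0004170, chrX:396060-397497), a proneural bHLH factor that dimerizes with Daughterless, had a rat peak at chrX:395575-396624 with a fold of 4.12 (−log10 q 3.46), ranked 2135. sisA (FBgn0003411, chrX:11321579-11322357), a bZIP factor of the blastoderm, had one at chrX:11322044-11322995 with a fold of 5.06 (−log10 q 6.11), ranked 915. Both peaks reached the 5′UTR and the coding sequence, and the sc peak also overlapped CG32816. The second-round w1118 list and the rabbit list held none at either gene, and the nearest rabbit peak lay 11944 bp from sc and 4190 bp from sisA.

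upd1 (FBgn0004956, chrX:18305354-18309291), the secreted ligand of the JAK-STAT pathway, was the X signal gene found with both antibodies. The rat peak over its outermost TSS (chrX:18309143-18309796) had a fold of 5.75 (−log10 q 14.9), ranked 499 by fold and 201 by q. The rabbit peak there (chrX:18309214-18309772) had a fold of 4.07 (−log10 q 2.85), ranked 1464, and lay wholly inside the rat peak, sharing 559 bp or 85.5% of it. The first-round rat list placed 2 weaker peaks beside upd1, one 1054 bp beyond its 3′ end with a fold of 2.74 and one 1636 bp upstream with a fold of 3.12. The upstream peak covered the TSS of lncRNA:CR45608 and also overlapped lncRNA:CR45609. In the second-round w1118 list the nearest peak lay 16135 bp from upd1.

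Deadpan (dpn, FBgn0010109, chr2R:8228971-8232330), the bHLH repressor that counts for the autosomes, carried the highest fold of the 14 first-round rat peaks of the members. This peak over its TSS (chr2R:8232256-8232589) had a fold of 6.99 (−log10 q 13.0) and ranked 181 of 6258. The second-round w1118 peak at dpn was another one, in the coding sequence 2237 bp downstream of the TSS (chr2R:8229827-8230093), with a fold of 3.55 (−log10 q 1.87) and rank 788, where the antisense transcript asRNA:CR44275 also lies. The peaks of the rounds did not overlap, and the nearest rabbit peak lay 5269 bp from dpn.

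**Figure D4:**
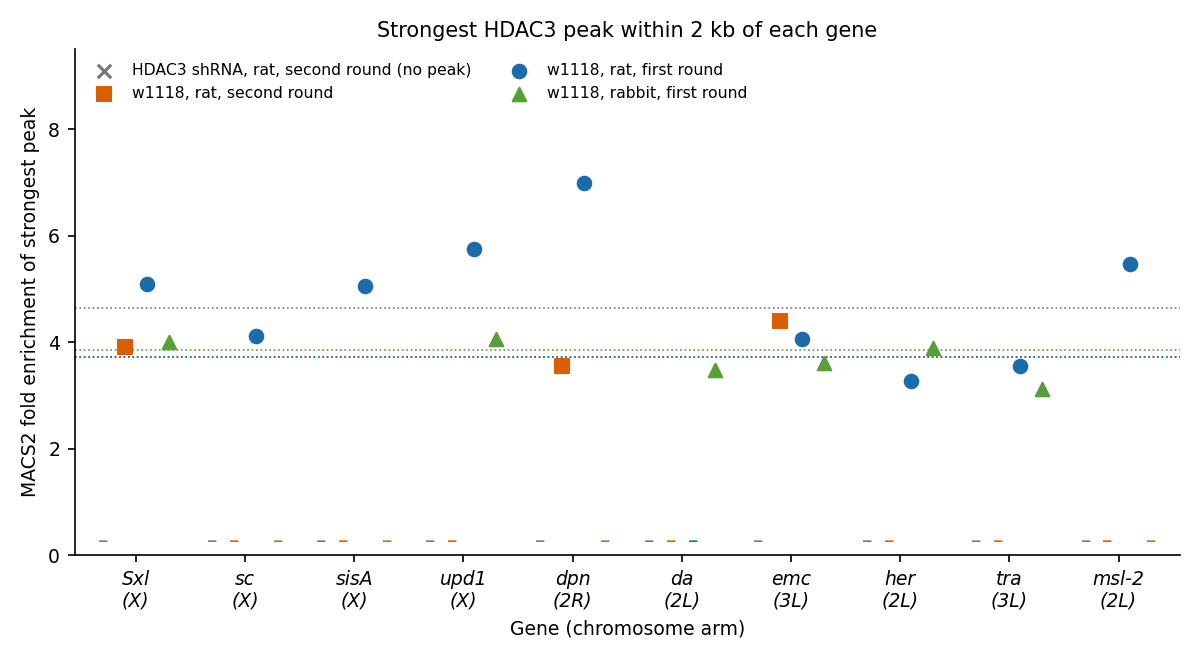
MACS2 fold enrichment of the strongest HDAC3 peak within 2000 bp of each gene in each list; a dash at the base marks a list without a peak and dotted lines are the list medians. Within the first-round rat list dpn is highest, at 6.99, within the rabbit list upd1, at 4.07, and the HDAC3 shRNA list has no value; heights are not comparable between lists.

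Of the maternal factors, emc had the peaks that most lists shared. Extramacrochaetae (emc, FBgn0000575, chr3L:749400-753492), an HLH protein without a basic region that ties up bHLH partners, lies inside hng3, which runs on the other strand. At its start the second-round w1118 peak (chr3L:748759-749205) had a fold of 4.39 (−log10 q 4.03) and ranked 213 of 1142, the highest rank a member held in that list. The first-round rat peak (chr3L:748696-749503) had a fold of 4.06 (−log10 q 7.65), ranked 2255, and the rabbit peak (chr3L:748705-749650) a fold of 3.62 (−log10 q 2.26), ranked 2399. The rat and rabbit peaks covered the TSS and shared 799 bp, 98.9% of the rat peak and 84.5% of the rabbit peak, whereas the second-round peak, contained in both, ended 195 bp upstream of it. A further pair of overlapping peaks lay beyond the 3′ end of emc within hng3, with a fold of 3.76 in the second-round w1118 list and 2.99 in the first-round rat list.

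Daughterless (da, FBgn0267821, chr2L:10388105-10393228), the common bHLH partner of Scute, had peaks in the rabbit list alone, and both were weak. One lay 415 bp downstream of the TSS (chr2L:10388520-10388748) with a fold of 3.48 (−log10 q 1.98) and rank 2803 of 3645. The other, 1217 bp upstream, had a fold of 3.25 (−log10 q 1.63), rank 3505, and covered the TSS of mRpS7, a mitochondrial ribosomal protein gene. The nearest first-round rat peak was 4917 bp from da, at Cnot4.

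The gene hermaphrodite (her, FBgn0001185, chr2L:16677185-16679691), a zinc finger factor needed both for Sxl and for later sexual differentiation, had no peak over its body. The peaks assigned to it lay beyond its 3′ end, 722 bp away with a fold of 3.26 (−log10 q 1.78) in the first-round rat list and 348 bp away with a fold of 3.89 (−log10 q 2.46) in the rabbit list. Both covered the TSS of squ, a piRNA pathway gene, and the rabbit peak also that of grp, the Chk1 kinase gene. They shared 185 bp, the whole of the rat peak.

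The targets of Sxl differed from each other. Transformer (tra, FBgn0003741, chr3L:16590059-16591050), the splicing factor made in females, had none over its body, and the peaks assigned to it lay 1551 bp away with a fold of 3.56 (−log10 q 2.86) in the first-round rat list and 1749 bp away with a fold of 3.12 (−log10 q 1.67) in the rabbit list. Both covered the TSS of asRNA:CR45895 and overlapped CG32163, and the rat peak covered the TSS of l(3)73Ah too. The male-specific lethal gene msl-2 (FBgn0005616, chr2L:3462218-3466112), whose product is the limiting subunit of the dosage compensation complex, had a rat peak over its start (chr2L:3465657-3466198) with a fold of 5.48 (−log10 q 7.24), ranked 646. That peak also covered the TSS of ND-PDSW, a respiratory chain gene that runs away from msl-2, and which of these genes it belongs to cannot be told from the list. A second rat peak, 1604 bp beyond the 3′ end of msl-2, had a fold of 3.39 and lay in CG3246 and Sec5. The nearest peak to msl-2 was 72697 bp away in the second-round w1118 list and 73491 bp away in the rabbit list.

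At the limit of 2000 bp, the farthest peaks assigned were the rabbit peak of tra at 1749 bp and the upd1 peak at 1636 bp, and the nearest left out were first-round rat peaks 2204 bp from dpn, with a fold of 3.54 and CG34217 as the nearest TSS, and 2248 bp from sc, with a fold of 3.29 and sc itself as the nearest TSS.

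The rat and rabbit lists of the first round shared a peak at Sxl, upd1, emc, her and tra, 5 of 10, against 25.5% of all genes. At upd1 and emc the shared peaks touched the start of the gene, and at her and tra they lay at a neighbour. At Sxl they shared the late-side TSS at 7097066, 987 bp from the outermost TSS, which the rabbit peak alone covered. Between the rounds, a rat peak of the first round overlapped a second-round w1118 peak at Sxl and emc, 2 of the 9 members with a first-round peak, against 21.7% of the genes with one, which is close to the background. Of the 3 members with a second-round w1118 peak, 0 had one that overlapped an HDAC3 shRNA peak, against 1.39% of such genes.

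By fold, the strongest peaks of the members had a median of 5.06 over 9 members in the first-round rat list, against 3.88 for all 7480 genes with a peak. In the rabbit list the median over the 6 members was 3.75 against 3.95 over 6114 genes. In the second-round w1118 list it was 3.91 over 3 members against 3.68 over 1722 genes. Folds of separate lists have no common scale, so each is read against its own list.

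Of the 15 annotated TSSs of the 10 genes, 5 had CAGGTAG within the 250 bp upstream, 1 each for Sxl (the early TSS), sc, sisA, upd1 and dpn, against 1.52% of the 19253 upstream windows of all protein-coding TSSs. sc and sisA had 3 copies each, in sc at −157, −128 and −119 and in sisA at −236, −163 and −46 from the TSS (the position of the first base), and upd1 had 1 copy at −221. The early Sxl window had CAGGTAG at −75, TAGGTAG at −122, overlapping copies of CAGGCAG at −234 and −230, and CACGCG at −113 and −102. Over all windows TAGGTAG was found in 1.51%, CAGGCAG in 2.58% and CACGCG in 5.08%. The windows of sc, sisA, upd1 and dpn each touched a first-round rat peak and that of the early Sxl TSS touched no peak, so 4 of 5 did, against 134 of 292 windows with CAGGTAG (45.9%) and 3556 of all 19253 (18.5%). In the rabbit list 1 of 5 did, that of upd1, against 25.7% of windows with CAGGTAG and 16.9% of all, and in the second-round w1118 list 0 of 5, against 9.59% and 3.28%. The windows of different TSSs of a gene can overlap, and a match is a run of letters, not a measured site. These upstream windows were added after the data were seen, so the shares are a description and no conclusion is drawn from them.

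The late-side window of Sxl shown above had no TAGteam sequence and held 8 matches to GAGAG, some overlapping, and 2 to CACGCG, at −72 and −46, and a peak of each w1118 list entered it. GAGAG was found in 29.1% of all upstream windows. Among the members it was also in the windows of sc (11 matches), emc (6), dpn, tra, msl-2 and every upd1 TSS. It was absent at sisA, da, her and the other Sxl TSSs. None of the 15 windows held TATCGATA, found in 6.90% of all, and GGTCACACT was present at the outermost TSS of Sxl and at tra, against 2.83% of all. TTCNNNGAA was present at tra alone, against 7.44%, and CAGCTG at msl-2 alone, against 14.0%. CACCTG was found at upd1 and msl-2, against 8.16%.

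Within 300 bp about the middle of the peaks, CAGGTAG occurred in 4 of the 14 first-round rat peaks of the members, at sisA, dpn and 2 of the upd1 peaks, against 7.17% of 6126 rat peaks. TAGGTAG occurred in 3 of 14, at Sxl, sisA and upd1, against 2.45%. GAGAG occurred in 9 of 14, against 46.4%, and neither TATCGATA (1.78% of rat peaks) nor GGTCACACT (1.98%) in any. The sc peak is broad, and its 3 copies of CAGGTAG lie in the peak but outside the 300 bp about its middle. In the rabbit list CAGGTAG occurred in 1 of 7, at upd1, against 4.67% of 3445 peaks, and in the second-round w1118 list in 0 of 4, against 6.09% of 1035.

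Of 25 further genes of sex determination and dosage compensation, 0 carried an HDAC3 shRNA peak, 7 one in the second-round w1118 list, 20 in the first-round rat list and 17 in the rabbit list, where the backgrounds over all genes are those given for the members. Peaks covered a TSS at 13 of the 25 in the first-round rat list and 8 in the rabbit list, against 14.6% and 13.0% of all genes, and 4 (snf, fru, ix and mof) had no peak in any list. A peak was present in both first-round lists at 16, against 27.5% of all genes, and at all 16 a rat peak overlapped a rabbit peak, against 25.5%.

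Among these 16, the gene for the receptor of Upd1 had the highest fold in each of the first-round lists, and run in the second-round w1118 list. Domeless (dome) had a fold of 3.80 in the second-round w1118 list (rank 521), 7.57 in the first-round rat list (rank 128) and 8.65 in the rabbit list (rank 45), each over a TSS. Stat92E, the transcription factor downstream of it, had peaks in an intron with folds of 3.39, 5.88 and 4.56 in the second-round w1118, first-round rat and rabbit lists. Runt (run), an X-linked activator of Sxl, had the highest second-round rank of the 35 genes, with a fold of 6.08 (rank 35 of 1142), beside 5.03 in the first-round rat list and 5.75 in the rabbit list, each over a TSS. Groucho (gro) had 3.28, 3.79 and 5.81 in the same order of lists, each at a separate place. The second-round w1118 peak lay upstream of gro, the first-round rat peak in its coding sequence and the rabbit peak over a TSS. Weaker gro peaks covered a TSS in the second-round w1118 and first-round rat lists. The gene zld, which encodes Zelda, had 3.18, 5.62 and 4.80 in the same order of lists, all in an intron.

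Mettl3, the m6A methyltransferase that aids Sxl splicing, had folds of 3.81 in the second-round w1118 list, 3.12 in the first-round rat list and 4.74 in the rabbit list, all upstream of the gene. Its partners fl(2)d and nito had no second-round peak, with rat and rabbit folds of 3.83 and 5.09 at fl(2)d and 3.63 and 3.52 at nito. Both nito peaks lay beyond the 3′ end of the gene, 9218 and 9332 bp from its nearest TSS. The partner of Tra, tra2, had 3.24 and 3.56. The gene how, for an RNA-binding protein, had a rat fold of 4.20 in an intron and a rabbit fold of 3.61 at a separate place, over a TSS. Doublesex (dsx), the sex-specific transcription factor at the end of the pathway, had 5.93 in the first-round rat list and 4.88 in the rabbit list.

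Genes of the dosage compensation complex had rat and rabbit folds of 4.06 and 3.91 at msl-1, 3.90 and 3.59 at the helicase gene mle, 4.03 and 5.30 at lncRNA:roX1, 3.04 and 3.33 at lncRNA:roX2 and 3.82 and 3.28 at Clamp, which encodes a factor that brings the complex to the X. Only mle among these 5 had a second-round w1118 peak, with a fold of 3.56. The mle folds came from peaks outside the gene and not from a common place. The first-round rat peak lay upstream of mle, and the rabbit and second-round w1118 peaks beyond its 3′ end. The median strongest fold of the 25 genes was 3.56 over 7 genes in the second-round w1118 list, 3.87 over 20 in the first-round rat list and 4.74 over 17 in the rabbit list, against 3.68, 3.88 and 3.95 over all genes with a peak.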

How the data were processed

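Per the methods, the authors used Trim Galore! for trimming, Bowtie2 for mapping (to dm6) and MACS2 for peak calling, 1 list per library. Versions, options, controls and the treatment of reads mapping to several places are not given in the sources used here. The deposited fold enrichment is a ratio of signal to local background. The authors deposited p- and q-values as −log10, and a score that is 10 times −log10 q truncated, which was not used on its own. The last peak numbers (175, 1725, 7801 and 5003 in the HDAC3 shRNA, second-round w1118, first-round rat and rabbit lists) exceed the list lengths, so peaks had been left out before deposit. Depth is unknown.

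Genes were those of Ensembl release 115 (BDGP 6), without transposable elements and entries lacking a gene identifier, on arms 2L, 2R, 3L, 3R, 4 and X. Starts were read as BED positions, counted from 0, and are printed from 1. Peaks overlapped when they shared at least 1 bp. Motifs were searched on both strands of RefSeq sequence, in 300 bp about the middle of peaks, since the lists give no summit. The 250 bp upstream windows were added after the data were seen. All 10 members, and those of 25 listed pathway genes with a peak in both first-round lists, are named with values; genes outside both lists are named where their TSS is nearest to a member's peak or covered by it, where the peak lies in them, or by a nearest peak left out. The members and lists were chosen with earlier results of these data known. Shares of all genes under the alternatives were added later. Alternatives covered the distance, the q limit, list length, overlap and the ranking. Python 3.11.15, numpy 2.4.6, pandas 2.3.3 and matplotlib 3.10.9 were used, and the functions were tested on simulated data. Coverage tracks and RNA-seq were not used here.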

Additional observations from a re-analysis of the deposited data

How the results depend on the processing

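HDAC3 shRNA embryos and the rabbit antibody have 1 library each and no replicate check, the w1118 rat libraries check each other only through the overlap of their peaks, and unknown depth limits every comparison of list lengths. No paired analysis was possible because no result comes from a test. Taking the 1142 strongest peaks of each w1118 list left 5 members in the first-round rat list instead of 9 (9.22% of all genes) and 0 in the rabbit list instead of 6 (11.6%). With a −log10 q of at least 3, the rabbit list had a peak at 1 member (14.5% of all genes) and the rat and rabbit lists shared one at 1 instead of 5 (10.0%). With at least 5, the counts were 0 in the rabbit list (5.20%), 0 in the second-round w1118 list instead of 3 (1.14%), and 0 shared (3.60%). The shared count was 3 with the gene body alone (14.3%), 3 where the nearest TSS had to be the member's own (13.9%) and 3 with a reciprocal overlap of 50% (18.4%), 0 with lists of equal length (5.04%), and 2 with the second-round w1118 list in place of the first-round rat list (7.74%). The count of 0 in the HDAC3 shRNA list held under the alternatives run. Other distances (0, 1000 and 5000 bp) left the strongest rat fold unchanged in 24 of 27 combinations of gene and distance, and gave none in the other 3, at her and tra. Ranking by q moved 4 of 9 rank percents by more than 1.5 times: Sxl 22.6 instead of 14.2, upd1 3.21 instead of 7.97, dpn 4.55 instead of 2.89 and emc 12.3 instead of 36.0.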

Other observations

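Genes related to the X signal genes were looked up after the members' values were seen. The proneural genes beside sc on the X also had first-round rat peaks over their start sites. Achaete (ac) had a rat peak with a fold of 5.75 (rank 501 of 6258), and l(1)sc had a rat peak with a fold of 5.53 (rank 614) and a rabbit peak with a fold of 4.12 (rank 1377 of 3645). The rat fold was 4.12 at sc. The fourth gene of the cluster, ase, had a rat peak with a fold of 3.49 that did not cover its TSS. The HDAC3 shRNA list and the second-round w1118 list held no peak at these genes.

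The other ligand genes of the JAK-STAT pathway lie near upd1. upd2 had a fold of 3.66 in the second-round w1118 list, 5.39 in the first-round rat list (rank 693) and 4.77 in the rabbit list (rank 700), upstream of its TSS, whereas upd1 had 5.75 in the first-round rat list, 4.07 in the rabbit list and no second-round peak. upd3 had a rat peak with a fold of 3.60 and none in the other lists.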
